A study of Ambystoma mexicanum with 61 samples.

Results

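The epithelial keratin genes Krt4, Krt12 and Krt124 of the axolotl were followed over the tissues of neotenic and metamorphosed animals. They were chosen by name, with earlier results of these data known, as the gene models whose annotated symbol was KRT4, krt12.S or KRT124. Each symbol had 1 model, so the set held 3 of the 23251 gene models counted. All 3 passed the filter on low counts. RNA of whole tissues of d/d axolotls aged 1 year was sequenced in 61 libraries. The neotenic group kept its larval form, and 17 tissues with 2 libraries each gave 34 libraries. The metamorphosed group had been induced with thyroxine (T4), and 15 tissues gave 27 libraries, with 1 library each for brain, fore limb and heart and 2 for every other tissue. Gill and gonad were sequenced in the neotenic group only. The study describes 2 animals per state for these bulk libraries, and the labels give each library 1 of 2 batches, so tissues of 1 batch may share an animal, and the p-values below measure the spread between libraries.

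Keratins are the intermediate filament proteins of epithelial cells. They assemble as pairs of a type I and a type II chain, and different epithelia, and different layers of 1 epithelium, carry different pairs. In mammals KRT4 is a type II keratin of the upper layers of moist stratified epithelia such as the oesophagus, and KRT12 is a type I keratin known from the cornea. Amphibian epidermis exchanges larval for adult keratins during metamorphosis under thyroid hormone, and axolotls that stay neotenic keep a larval, non-cornified skin.

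In the annotation of the AmexG_v3.0.0 assembly the 3 models lay on different scaffolds. KRT4 (AMEXTC_0340000053619) lay on scaffold AMEXG_0030013899 from 1 to 194752 on the plus strand, with 21 exons. Krt12 (krt12.S, AMEXTC_0340000002081) lay on scaffold AMEXG_0030006615 from 1191787 to 1217677 on the minus strand, with 7 exons. KRT124 (AMEXTC_0340000056505) lay on scaffold AMEXG_0030005437 from 2507956 to 2618500 on the plus strand, with 11 exons. Their exons covered 6924, 3684 and 2990 bases, and over all libraries they ranked 42nd, 242nd and 382nd of all models by total count. Krt12 shared its scaffold with 1 other keratin model and Krt124 shared its scaffold with 2. Reads that matched several places or several models were not counted, so reads that near-identical keratins share are missing from these values.

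Library totals ranged from 69278 to 27389476 counts with a median of 7899985, and the shallowest library, metamorphosed skin replicate 1, was far below the second lowest, at 1604880. A pair of libraries went against their labels. The library labelled neotenic stomach replicate 2 carried 4 uroplakin genes of urothelium and surface epithelium at a summed 1094 CPM (counts scaled to the effective library size, the library total times its TMM factor), as neotenic tail replicate 1 did at 1064, whereas the library labelled neotenic tail replicate 2 had them at 3.50 and neotenic stomach replicate 1 at 3.04. The sum of 2 stomach gland genes (GKN1 and AQP4) was 7.12 CPM in 1 library labelled neotenic stomach and 12228 CPM in the other. In the libraries labelled neotenic tail it was 5.03 and 18492 CPM. The libraries labelled neotenic stomach 2 and tail 2 were kept under their labels, so values given under these labels may belong to another tissue. Whether they had been exchanged was not tested. Results that rest on these libraries are given with and without them. Every fit that left out named libraries kept the dispersion trend of the full fit, to which those libraries had contributed. Only the quasi-dispersions were estimated again. Libraries of metamorphosed skin replicate 2, fore limb replicate 1, hind limb replicate 2 and bladder replicate 2 carried 6 intestinal genes at 1588 to 2920 CPM summed, against 4.88 to 31.9 CPM in the neotenic gill, skin, limb, bladder and eye libraries. The same 4 libraries carried 3 liver genes (APOB, AHSG and fgb.S) at 1654 to 2973 CPM summed, against 9.23 to 70.0 CPM in the neotenic gill, skin, limb and bladder libraries, and the weight of these libraries was measured in the same way.

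In the neotenic axolotl all 3 keratins were abundant in the external tissues, here gill, skin, fore limb, hind limb and tail. Krt4 stood at 7928 and 9156 CPM in gill, 8528 and 15348 in skin, 10028 and 12427 in fore limb, and 12503 and 11786 in hind limb. Krt12 stood at 1818 and 2014 CPM in gill, 3351 and 1735 in skin, 3445 and 2517 in fore limb, and 7346 and 2402 in hind limb. Krt124 stood at 1236 and 931 CPM in gill, 2549 and 934 in skin, 2117 and 1345 in fore limb, and 5823 and 1406 in hind limb. Tail replicate 1 was like these tissues, at 10148 CPM for Krt4, 4562 for Krt12 and 3343 for Krt124, and the library labelled tail replicate 2 had 24.9, 3.69 and 1.55 CPM. The library labelled stomach replicate 2 had 11199.9, 2901 and 1709 CPM, beside 16.7, 6.52 and 5.00 in stomach replicate 1.

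Hind limb had the highest mean of each keratin, 12144 ± 507 CPM for Krt4, 4874 ± 3496 for Krt12 and 3614 ± 3123 for Krt124 (SD, n = 2). The order among hind limb, fore limb and skin was not resolved, because the libraries of neighbours in the order overlapped for every member. For all 3 genes the gill libraries lay below both libraries of fore limb and of hind limb, and overlapped those of skin. The Krt4 mean in gill was 8542 ± 868 CPM (SD, n = 2). Compared per kilobase of exon, Krt4 was the most abundant of the 3 in hind limb, with 1754 CPM per kb beside 1323 for Krt12 and 1209 for Krt124. The 16 gene models annotated as keratins together took 2.09% to 3.22% of all counts in the 9 neotenic libraries of gill, skin, limbs and tail replicate 1, and the 3 members made up 44.7% to 79.8% of that keratin share.

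**Figure D1:**
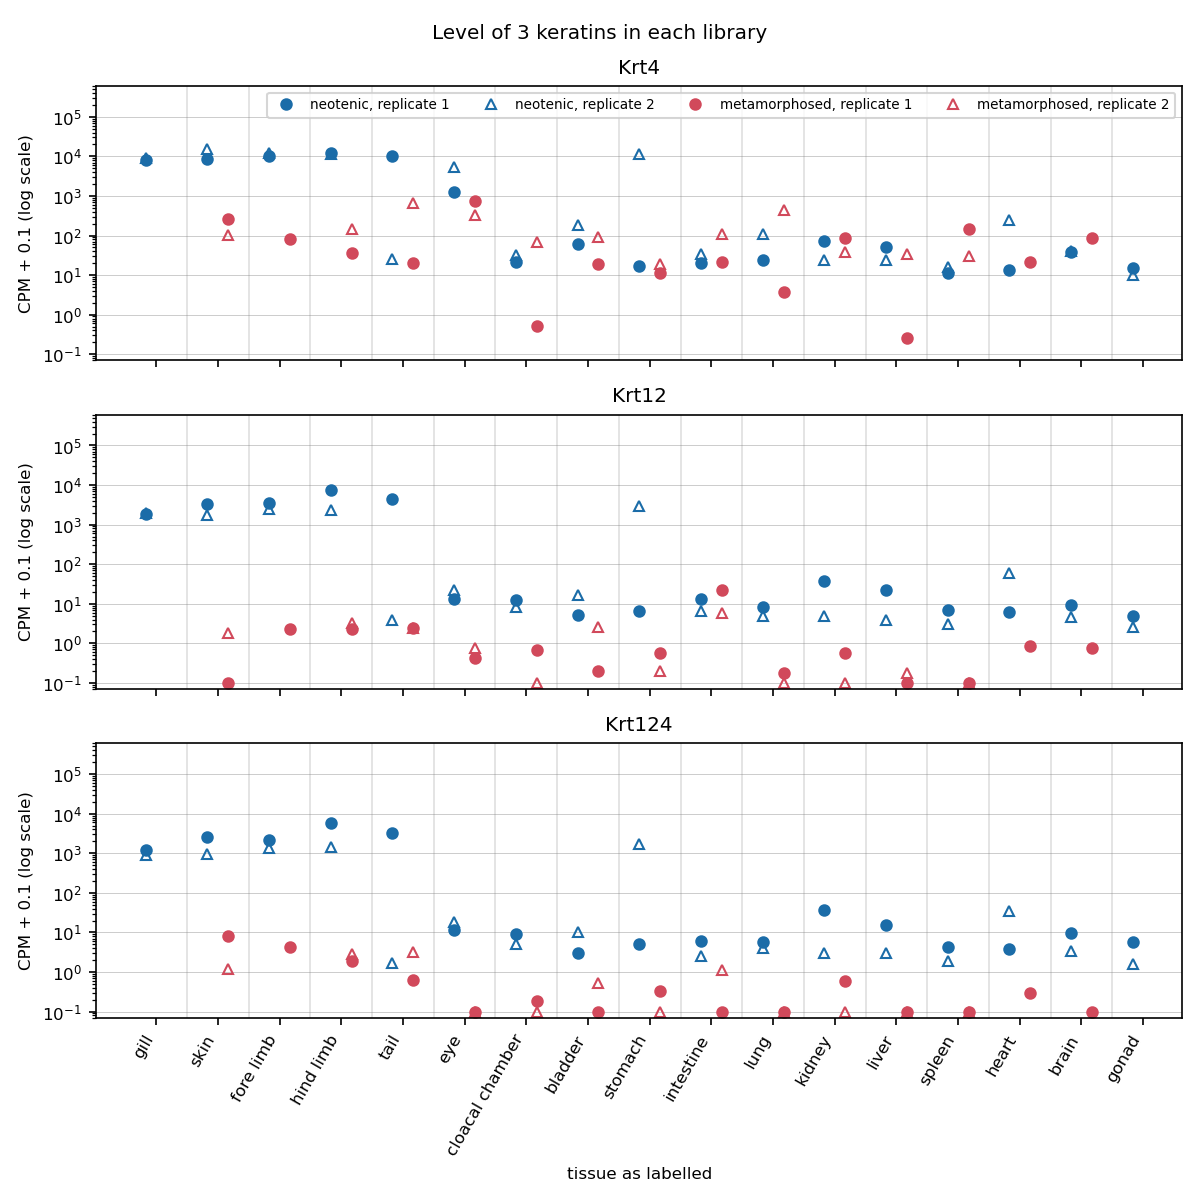
Level of Krt4, Krt12 and Krt124 in each of the 61 libraries, as CPM + 0.1 on a log axis, by labelled tissue; blue is neotenic, red is metamorphosed, circles are replicate 1 and triangles replicate 2. Neotenic gill, skin and limbs sit between 931 and 15348 CPM for all 3 genes. The library labelled neotenic stomach replicate 2 sits within that range, and the library labelled neotenic tail replicate 2 sits among the internal tissues.

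The internal tissues of the neotenic axolotl held the same genes at far lower levels. Over 21 libraries of 11 internal tissues, with the library labelled stomach replicate 2 left out, Krt4 ranged from 10.2 to 241 CPM with a median of 24.5. Krt12 ranged from 2.51 to 58.8 CPM with a median of 6.52, and Krt124 from 1.54 to 36.9 CPM with a median of 4.94. The lowest library for each gene was gonad replicate 2. Heart replicate 2 was the highest for Krt4 and Krt12, and kidney replicate 1 the highest for Krt124. No neotenic library was at 3 counts or fewer for any of the 3 genes. The Krt4 level per kilobase was a median 2.12 times that of Krt12 in the 21 internal libraries, beside 2.32 in the 9 external ones. The paper states that the organ libraries were pooled for sequencing. Whether reads carried over from the external libraries contributed to the low internal values was not tested.

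Cloacal chamber and bladder, which are lined by epithelium, were on the internal side of this divide. Krt4 stood at 21.9 and 31.8 CPM in neotenic cloacal chamber and at 60.2 and 179 in bladder. Krt12 stood at 12.4 and 8.31 CPM in cloacal chamber and at 5.24 and 16.6 in bladder, and Krt124 at 9.22 and 4.94 CPM in cloacal chamber and at 2.95 and 10.3 in bladder. Both tissues carried 5 general epithelial genes (epcam.S, cdh1.S, GRHL2, cldn4 and cldn7.L) strongly, at 2206 to 2566 CPM summed in cloacal chamber and 1085 to 1135 in bladder, beside 1931 to 2279 in gill. Urothelial genes were present in bladder at 1014 to 1059 CPM summed. The 2 tissues were thus rich in epithelial transcripts and carried these 3 keratins at no more than 179 CPM.

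Set against the mean of the remaining neotenic tissues, all 3 keratins passed the test in gill, in limbs and in skin. The genes and tissues of these tests had been chosen with earlier results of these data known, so the p-values are not independent support. The SE of each edgeR estimate, here and below, was its absolute value divided by the square root of the F statistic of its test. In gill the log2 enrichment was 4.99 ± 0.76 for Krt4, 5.11 ± 0.78 for Krt12 and 4.82 ± 0.82 for Krt124 (SE; edgeR adjusted p = 7.09e-05, 6.49e-05 and 0.000249), where 9.48% of 18982 genes were called higher. In limbs it was 5.79 ± 0.65, 6.53 ± 0.67 and 6.46 ± 0.70 (edgeR adjusted p = 1.41e-06, 5.67e-07 and 8.86e-07), where 13.1% of genes were called higher. In skin it was 5.42 ± 0.75, 5.42 ± 0.77 and 5.41 ± 0.80 (edgeR adjusted p = 4.23e-05, 5.3e-05 and 8.82e-05), where 6.61% were called higher. None of the 3 was called higher in cloacal chamber, where 10.8% of genes were, or in bladder, where 6.32% were. The estimates there were below the mean of the remaining tissues, which include the high external ones. They were -3.92 ± 1.71, -2.98 ± 1.63 and -2.99 ± 1.71 in cloacal chamber and -1.62 ± 1.42, -2.88 ± 1.61 and -3.06 ± 1.71 in bladder for Krt4, Krt12 and Krt124, with edgeR adjusted p from 0.147 to 0.675. By mean CPM bladder ranked 9th, 11th and 12th of the 17 neotenic tissues for the 3 genes. Cloacal chamber ranked 15th, 12th and 11th. With DESeq2 the 3 genes passed as lower in cloacal chamber (adjusted p = 0.00291, 0.0397 and 0.0498), and Krt4 also passed with edgeR once the libraries labelled neotenic stomach 2 and tail 2 were left out (adjusted p = 0.0134). The 9 calls in gill, limbs and skin passed under every alternative tried, with each library of the tissue left out in turn.

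In the metamorphosed axolotl the abundance of Krt12 and Krt124 in the external tissues was gone. Krt12 stood at 0 and 1.74 CPM in metamorphosed skin, 2.24 in fore limb, 2.23 and 3.23 in hind limb, and 2.34 and 2.37 in tail. Krt124 stood at 8.06 and 1.07 CPM in skin, 4.07 in fore limb, 1.79 and 2.77 in hind limb, and 0.521 and 3.16 in tail. Skin replicate 1 is the shallow library, and its Krt124 value is a single count. Leaving tail aside, every metamorphosed library of these tissues lay below every neotenic one.

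Krt4 was lower too, but was still detected in each external library. It stood at 258 and 104 CPM in metamorphosed skin, 81.3 in fore limb, 35.8 and 148 in hind limb, and 19.5 and 657 in tail. In skin, limbs and tail of the metamorphosed axolotl the 3 members made up 0.233% to 1.88% of the keratin counts. All keratin models together took 0.591% to 2.75% of counts there, with a median of 1.40% beside 2.66% in the neotenic libraries. The 2 libraries above the neotenic minimum were tail replicate 2 (2.75%) and the shallow skin replicate 1 (2.54%).

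Within skin the fitted log2 change from neotenic to metamorphosed was -10.17 ± 2.74 for Krt124 and -10.60 ± 2.46 for Krt12 (SE; edgeR adjusted p = 0.0345 and 0.0195), and both were called lower, as were 2.68% of the 20216 genes tested. Krt4 changed by -6.08 ± 2.36, a mean of 181 beside 11938 CPM with no overlap between the groups, and did not pass (edgeR adjusted p = 0.116; DESeq2 0.0111). With only the libraries of skin in the fit Krt4 passed (edgeR adjusted p = 0.00356). An earlier microarray study cited in the paper had Krt12 lower but Krt4 higher in skin after metamorphosis. The calls in skin depended on single libraries. Krt124 was no longer called without any 1 of the 4 skin libraries (edgeR adjusted p = 0.124 without neotenic replicate 1, 0.0801 without neotenic replicate 2, 0.0709 without metamorphosed replicate 1 and 0.488 without metamorphosed replicate 2). Krt12 was no longer called without neotenic replicate 1 (0.0724), metamorphosed replicate 1 (0.0524) or metamorphosed replicate 2 (0.302), all adjusted p from edgeR.

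Cell makeup may differ between the states, and in bulk samples fewer cells of a type and less RNA per cell cannot be told apart. The epidermal marker list, of which 5 of 8 genes had a model (tp63, COL17A1, DSP, PKP1 and perp.S), summed to 1871 to 1993 CPM in neotenic skin and 590.1 to 1305 CPM in metamorphosed skin, with 1 gene at 0 in the shallow library. In hind limb the same sum was 613 to 1427 CPM in neotenic and 797 to 1211 CPM in metamorphosed libraries, so the groups overlapped. In tail it was 1483 CPM in neotenic replicate 1 and 1599 to 1636 CPM in the metamorphosed libraries. This sum was not particular to epidermis, since neotenic bladder had 632 to 832 CPM and neotenic cloacal chamber 561 to 841 CPM. It was lowest in neotenic spleen, at 15.8 to 22.0 CPM. Like sums therefore cannot show like epidermal content. Other epithelial lists were lower in the metamorphosed libraries. The 5 general epithelial genes summed to 2266 to 2999 CPM in neotenic and 926 to 1562 CPM in metamorphosed skin, 1936 to 2157 beside 548 to 1674 CPM in hind limb, and 2386 CPM in neotenic tail replicate 1 beside 874 to 1109 CPM in metamorphosed tail. The 4 uroplakin genes summed to 489.6 to 802 beside 105 to 273 CPM in skin, 798 to 1023 beside 19.4 to 331 CPM in hind limb, and 1064 beside 11.5 to 32.9 CPM in tail. The part of epithelial content in the fall of the keratins was not tested.

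In hind limb the change was -10.59 ± 2.45 for Krt124 and -10.77 ± 2.26 for Krt12 (SE; edgeR adjusted p = 0.0372 and 0.0228), with 0.277% of genes called lower. Krt4 changed by -7.05 ± 2.45 and did not pass (edgeR adjusted p = 0.114; DESeq2 0.00137). Without the libraries labelled neotenic stomach 2 and tail 2, and with the dispersion trend of the full fit kept, Krt4 passed in hind limb (edgeR adjusted p = 0.0495). The Krt124 call was lost without any 1 of the 4 hind limb libraries (edgeR adjusted p = 0.134 and 0.132 without neotenic replicates 1 and 2, 0.0657 and 0.355 without metamorphosed replicates 1 and 2). The Krt12 call was lost without neotenic replicate 1 (0.0846), neotenic replicate 2 (0.075) or metamorphosed replicate 2 (0.31), again adjusted p from edgeR. With only the hind limb libraries in the fit neither passed (edgeR adjusted p = 0.167 for both).

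In tail the change was -9.75 ± 2.39 for Krt124 and -9.91 ± 2.21 for Krt12 (SE; edgeR adjusted p = 0.0463 and 0.0274), with 0.356% of genes called lower, and for Krt4 -3.91 ± 2.12 (adjusted p = 0.494). This result rests on neotenic tail replicate 1, because the library labelled replicate 2 had none of the 3 keratins at a high level. Without replicate 1 the change was 0.31 for Krt124, -0.64 for Krt12 and 3.77 for Krt4, none of them called (edgeR adjusted p = 1.0, 0.976 and 0.662). Leaving out metamorphosed tail replicate 1 or 2 also ended both calls (edgeR adjusted p = 0.262 and 0.269 for Krt124, 0.182 and 0.263 for Krt12). With the batch number as a block Krt124 fell just short in tail (edgeR adjusted p = 0.0543). The labels do not say whether batches of the same number match between the states. Paired by batch number, the log2(CPM + 1) difference in tail was -10.41 in batch 1 and -0.48 in batch 2 for Krt12. In skin it was -11.71 and -9.31. The neotenic library of the batch 2 pair in tail was the one labelled tail replicate 2, which went against its label.

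The 4 metamorphosed libraries with intestinal and liver genes included 1 of the 2 skin and 1 of the 2 hind limb libraries. The other library of each tissue carried the same genes at lower levels. Intestinal and liver genes summed to 209 and 717 CPM in skin replicate 1 and to 129 and 351 CPM in hind limb replicate 1. Neotenic skin and hind limb had at most 25.4 and 70.0 CPM, so fits without the 4 are not free of these transcripts. Without all 4, neither Krt12 nor Krt124 was called in skin (edgeR adjusted p = 0.276 and 0.475) or in hind limb (0.262 and 0.313), and in tail Krt12 was called (0.0231) and Krt124 was not (0.0506). Without these 4 and the libraries labelled neotenic stomach 2 and tail 2, Krt12 was called in skin, hind limb and tail (edgeR adjusted p = 0.0386, 0.0165 and 0.00017) and Krt124 in hind limb and tail (0.0466 and 0.00151). The group left with 1 library was taken to vary like the others. In skin the metamorphosed group was left with the shallow replicate 1. It had 0 counts of Krt12, and 3 counts there equal 43.3 CPM by library total. In metamorphosed hind limb replicate 1, where intestinal genes were at 129 CPM, Krt12 stood at 2.23 and Krt124 at 1.79 CPM.

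**Figure D2:**
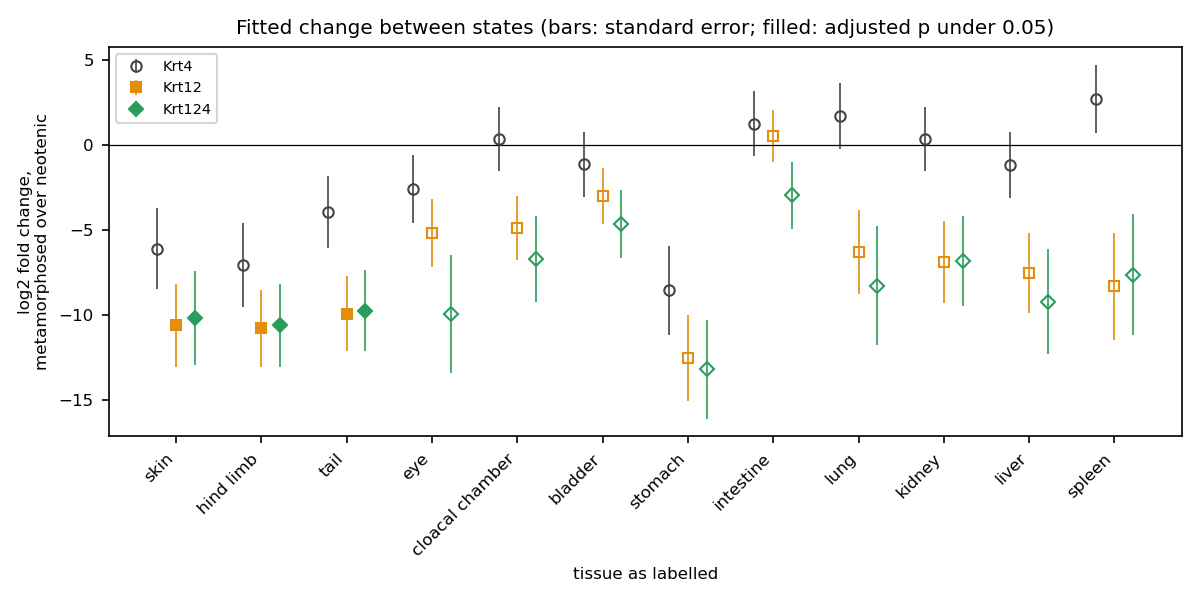
Fitted log2 fold change of metamorphosed over neotenic libraries in the 12 tissues with 2 libraries per state. Bars are standard errors derived from the F statistic, and filled symbols passed the edgeR test at an adjusted p under 0.05. Krt12 and Krt124 are filled in skin, hind limb and tail at -9.75 to -10.77, and no symbol of Krt4 is filled; the stomach values rest on the library labelled neotenic stomach replicate 2, and values of groups at 3 counts or fewer are no bounds.

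Outside these tissues the edgeR fit to all 61 libraries gave no call for any of the 3 keratins in a single tissue. The background there was also low, with 0.0% of genes called lower in cloacal chamber, bladder, eye, lung, stomach, intestine and kidney, 0.00989% in liver and 0.203% in spleen. At an unadjusted p under 0.05, over all 12 tissues, the count was 10 for Krt12, 11 for Krt124 and 3 for Krt4, all of them lower, beside 3.64% of the values of all genes. DESeq2 called Krt12 lower in 6 tissues (also stomach, liver and spleen), Krt124 in 6 (also eye, stomach and liver) and Krt4 in 3 (skin, hind limb and stomach). Of 20216 genes DESeq2 called 1818 in skin, 1377 in hind limb and 629 in tail, in either direction. The edgeR fit called 989, 121 and 145 there. DESeq2 also called 404 genes in spleen, 286 in stomach, 113 in eye and 89 in liver. Other edgeR fits also called Krt12 lower, in spleen with only its own libraries, in stomach with a block within each state, and in liver and spleen without the 4 libraries with intestinal and liver genes and the libraries labelled neotenic stomach 2 and tail 2. The stomach calls rest on the library labelled neotenic stomach replicate 2.

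Values of Krt12 and Krt124 were nevertheless lower in nearly every tissue. In internal tissues these falls start from the low neotenic levels given above, in which the part of carried-over reads was not tested. Metamorphosed cloacal chamber had Krt12 at 0.57 and 0 CPM and Krt124 at 0.0814 and 0 CPM, below both neotenic libraries in each case, and Krt124 was at least 19.2-fold higher in the neotenic group, taking 3 counts per metamorphosed library as the floor. Metamorphosed bladder had Krt12 at 0.0992 and 2.44 CPM and Krt124 at 0 and 0.421 CPM, also below both neotenic libraries. Krt124 was at 0 counts in both metamorphosed libraries of eye, lung, liver and spleen, which on the same floor put the neotenic group at least 19.7-fold, 5.13-fold, 24.8-fold and 5.63-fold higher. Krt12 and Krt124 each had non-overlapping groups, lower in the metamorphosed libraries, in 11 of 12 tissues, and Krt4 in 3. Over all genes and the 12 tissues, 18.0% of values had such groups, and 0.134% of genes had them in 11 or more tissues. The exceptions were intestine for Krt12 and tail for Krt124. Over the 18 metamorphosed libraries of internal tissues 12 were at 3 counts or fewer for Krt12 and 16 for Krt124, and 12 had no Krt124 count at all.

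Metamorphosed intestine stood apart for Krt12, at 22.3 and 5.80 CPM beside 13.0 and 6.34 in the neotenic libraries. Replicate 1 had 157 counts of Krt12 and 0 of Krt124, and replicate 2 had 44 and 8. Neotenic intestine, in contrast, had 98 counts of Krt12 beside 46 of Krt124 in replicate 1.

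Over the 12 tissues together the mean log2 change was -8.32 ± 0.78 for Krt124, -7.11 ± 0.63 for Krt12 and -2.01 ± 0.57 for Krt4 (SE; edgeR adjusted p = 1.27e-08, 1.75e-09 and 0.0115). All 3 were called lower, as were 7.02% of genes, while 10.9% were called higher. The internal tissues enter this mean with the low neotenic levels described above. Single-tissue estimates were negative in 12 of the 12 tissues for Krt124, 11 for Krt12 and 7 for Krt4. For Krt4 they were positive in cloacal chamber, lung, intestine, kidney and spleen. Its largest fall, -8.54 in stomach, rests on the library labelled neotenic stomach replicate 2. For Krt12 and Krt124 the call over the 12 tissues held in every alternative, none of which took the animal as the unit. These included the fits without the libraries labelled neotenic stomach 2 and tail 2 (-6.55 and -7.79). They also included those without the 4 metamorphosed libraries with intestinal and liver genes (-7.98 and -8.45). For Krt4 it was lost without the library labelled neotenic stomach 2 (-1.31, edgeR adjusted p = 0.0808), without neotenic tail replicate 1 (-1.37, adjusted p = 0.0697) and without the 4 and the 2 libraries together (-1.59, adjusted p = 0.0583). Averaged over the 12 tissues within a batch, log2(CPM + 1) of Krt12 was 5.79 and 4.99 in neotenic batches 1 and 2 and 0.867 and 0.902 in metamorphosed ones. The same means were 5.36, 4.35, 0.52 and 0.547 for Krt124 and 7.46, 7.99, 4.68 and 6.63 for Krt4, so in each case both neotenic batches lay above both metamorphosed ones.

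The size of the change was compared between skin with hind limb and cloacal chamber with bladder. The change in skin and hind limb minus that in cloacal chamber and bladder was -6.74 ± 1.86 log2 units for Krt12, -6.18 ± 2.05 for Krt4 and -4.71 ± 3.34 for Krt124 (SE), and none of these differences passed (edgeR adjusted p = 0.105, 0.171 and 0.569), in a contrast where 0.232% of genes were called in either direction. The 3 unadjusted p were 0.000968, 0.00479 and 0.168. For Krt12 the difference passed with DESeq2 (adjusted p = 0.0086) and without the libraries labelled neotenic stomach 2 and tail 2 (edgeR adjusted p = 0.00422), and for Krt4 with DESeq2 (adjusted p = 0.0269). Since Krt124 stood at only 0 to 0.421 CPM in metamorphosed cloacal chamber and bladder, its fitted difference is no bound. Krt12 stood at 0 to 2.44 CPM in metamorphosed cloacal chamber and bladder and at 0 to 3.23 CPM in metamorphosed skin and hind limb. In the neotenic libraries it stood at 5.24 to 16.6 CPM and at 1735 to 7346 CPM. Whether the difference of Krt12 follows from these unlike starting levels was not tested.

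The eye departed from the pattern in which the 3 keratins went together. Krt4 stood at 1292 and 5329 CPM in neotenic eye, far above the internal tissues, while Krt12 stood at 12.8 and 22.1 CPM and Krt124 at 11.5 and 18.3 CPM. Per kilobase the Krt4 level was 53.7 and 128 times that of Krt12 in the 2 eye libraries, beside 0.906 to 4.71 times in the 9 neotenic libraries of gill, skin, limbs and tail. In metamorphosed eye Krt4 stood at 762 and 331 CPM, both below the neotenic libraries, a change of -2.60 ± 2.00 that did not pass (edgeR adjusted p = 0.917). Krt12 was at 0.336 and 0.671 CPM there, 2 counts in each library, and was at least 23.1-fold higher in neotenic eye. The axolotl model named for the corneal keratin of mammals was thus at a low level in the whole eye of both states.

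Krt12 and Krt124 kept a similar proportion in the neotenic axolotl. The Krt124 level per kilobase was 0.570 to 0.977 times that of Krt12 in the 9 external libraries, with a median of 0.757, and 0.462 to 1.39 times in the 21 internal ones, with a median of 0.787. Over the 61 libraries, which share animals and batches, log2(CPM + 1) of Krt12 and Krt124 had Pearson's r = 0.977, and r = 0.997 over the 34 neotenic libraries. Krt4 followed them less closely, at r = 0.798 with Krt12 and 0.821 with Krt124 over all libraries and 0.926 with each in the neotenic ones. Among 20215 other genes Krt124 was the one most like Krt12, and Krt12 ranked 2nd among those most like Krt124.

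**Figure D3:**
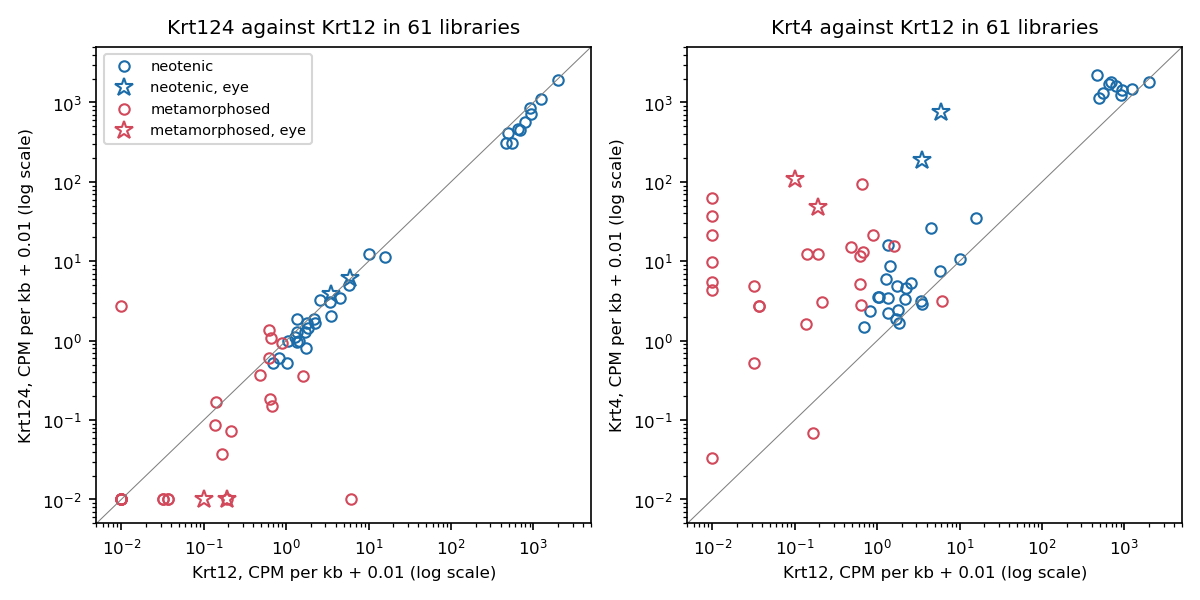
Krt124 (left) and Krt4 (right) against Krt12 in the 61 libraries, as CPM per kilobase of exon + 0.01 on log axes; the line marks equal values, blue is neotenic, red is metamorphosed and stars are eye. Krt124 runs along Krt12 in the neotenic libraries (ratio 0.462 to 1.39), and the neotenic eye libraries lie 53.7 and 128 times above the line for Krt4.

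With the members left aside, the 5 genes with a symbol most like Krt12 over the 61 libraries were the same as those most like Krt124. They were Acrv1, QRICH2, ZNF423, an alpha-keratin and prph. Acrv1, known in mammals as a protein of the sperm acrosome, had r = 0.967 with Krt12 and 0.972 with Krt124, and prph, the neuronal intermediate filament peripherin, had r = 0.916 and 0.919. In its single-cell data the paper used Krt12, Krt124 and Acrv1 together to name clusters of corneal-like epithelial cells in neotenic skin. The 5 most like Krt4 were THEM6 (r = 0.938), AGR2 (0.930), vwa5a.2.L (0.894), hes2 (0.893) and a second THEM6 model (0.871). AGR2 is a protein disulfide isomerase of mucus-secreting cells, and hes2 is a transcriptional repressor of the hairy and enhancer of split family. These likenesses are descriptions over libraries that share a few tissues with high values.

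The other keratins were counted over neotenic tissues and between states. Of 12 tested in the neotenic libraries, 7 were called higher in gill, 8 in limbs and 7 in skin, with median log2 enrichments of 2.83, 3.43 and 2.37. In cloacal chamber 4 were called higher and in bladder 2. Of all genes 9.48%, 13.1%, 6.61%, 10.8% and 6.32% were called higher in these tissues, in the order named. None was called lower in these 5 contrasts. Only 3 further models bore a numbered keratin symbol, KRT18, krt222 and krt35.L, and none of them was called in skin, hind limb or tail. KRT18, a type I keratin of simple epithelia in mammals, stood at 288 to 324 CPM in neotenic skin and 636 to 1515 in metamorphosed skin (1.82 ± 1.13 log2 units, edgeR adjusted p = 0.336), and it was enriched in neotenic cloacal chamber (2.87 ± 0.66, adjusted p = 0.00411). Krt222 was called higher in metamorphosed tissues over the 12 tissues (1.42 ± 0.34, edgeR adjusted p = 0.00298). Krt5, Krt6a, Krt8, Krt14, Krt15, Krt19 and Krt24 were not analysed here, since no model counted bore those symbols.

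A further 10 models were annotated only as keratin, alpha-keratin or cytokeratin, and they were added after the files had been seen. Of the 13 other keratin models, 1 was called lower and 0 higher in skin, where 2.21% of genes were called higher, 1 lower and 0 higher in hind limb, where 0.322% were called higher, and 1 lower and 1 higher in tail, where 0.361% were called higher. The shares of genes called lower were 2.68% in skin, 0.277% in hind limb and 0.356% in tail. Over the 12 tissues 1 of the 13 was called lower and 4 higher, where 7.02% of genes were called lower and 10.9% higher. Their median log2 change was 0.89 beside 0.02 for all genes, although the estimates of krt35.L and of the alpha-keratin ending 041500 had no usable error. The 4 were krt222 and the models ending 066381, 060835 and 122671, and the cytokeratin ending 060835 was also the one called higher in tail (8.19 ± 1.57, edgeR adjusted p = 0.00893). The model that fell was the same in each case, the alpha-keratin with the identifier ending 064260, also among the genes most like Krt12 and Krt124. It stood at 152 to 696 CPM in neotenic skin and 0 to 0.668 in metamorphosed skin (-9.32 ± 2.24 log2 units, edgeR adjusted p = 0.0236), and it changed by -8.37 in hind limb and by -8.40 in tail (edgeR adjusted p = 0.0296 and 0.03).

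The 2 keratin neighbours of Krt124 on its scaffold did not share its fall in skin and hind limb. The keratin ending 066381, on the scaffold of Krt124, stood at 2807 to 6754 CPM in neotenic and 1348 to 9650.2 CPM in metamorphosed skin, and at 1436 to 1646 beside 2863 to 10479.8 CPM in hind limb. It was called higher over the 12 tissues (1.88 ± 0.55, edgeR adjusted p = 0.015). The cytokeratin ending 059583, on that scaffold too, stood at 252 to 290.4 CPM in neotenic and 926 to 3800.1 CPM in metamorphosed skin and was not called there (adjusted p = 0.103). It was at 8048 to 10035 CPM in neotenic cloacal chamber, where the 3 members were low. The alpha-keratin ending 041500, on the scaffold of Krt12, reached at most 17.5 CPM, in neotenic hind limb, and was not called in skin, hind limb or tail. It changed by -1.85 ± 1.15 in hind limb and 5.30 ± 1.59 in tail (SE; edgeR adjusted p = 0.417 and 0.159). In skin it had no usable estimate, so it cannot show whether the fall of Krt12 was shared there. In the bladder the most abundant keratin models were the alpha-keratin ending 003827, at 5479 to 5788 CPM in neotenic libraries, and the Keratin ending 122671, which was enriched there by 5.51 ± 0.45 log2 units (edgeR adjusted p = 3.81e-08).

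**Figure D4:**
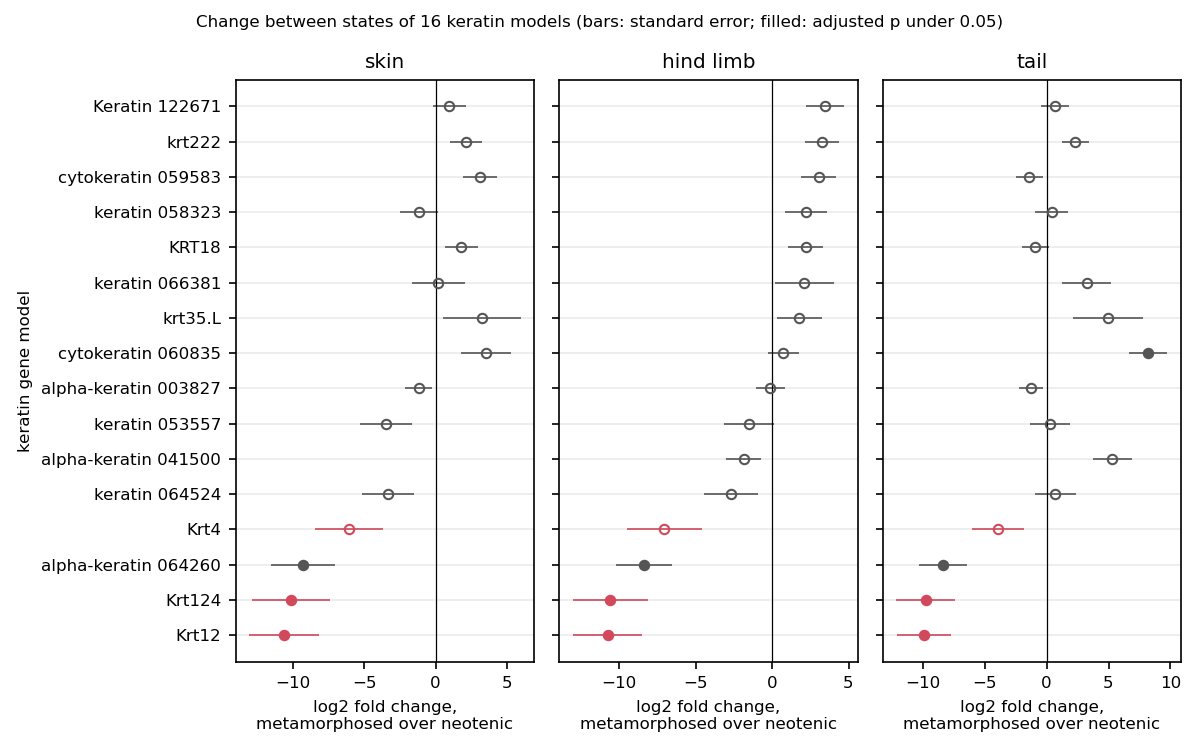
Fitted log2 fold change of metamorphosed over neotenic libraries for the 16 keratin models in skin, hind limb and tail. Red marks Krt4, Krt12 and Krt124, and numbers are the last digits of the model identifiers. Bars are standard errors derived from the F statistic, and filled symbols passed at an edgeR adjusted p under 0.05. Krt12, Krt124 and the alpha-keratin 064260 are filled at -8.37 to -10.77 in all 3 tissues, cytokeratin 060835 is filled at 8.19 in tail, and a model without counts in a tissue has no symbol there.

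Genes of epithelial junctions and attachment, which link keratin filaments to neighbouring cells and to the basement membrane, were also counted. Of 25 listed adhesion genes 19 were tested in the neotenic libraries, and 14 were called higher in gill, 14 in limbs and 17 in skin, with 7 in cloacal chamber and 6 in bladder, where the members were not called (9.48%, 13.1%, 6.61%, 10.8% and 6.32% of all genes were). Of 20 tested between states, 2 were called lower in skin, the desmosomal and junctional gene jup (-1.60 ± 0.49, edgeR adjusted p = 0.0498) and the hemidesmosomal integrin ITGA6 (-2.09 ± 0.54, adjusted p = 0.0282), and DSG2, a desmosomal cadherin, was called lower in tail (-2.80 ± 0.71, adjusted p = 0.0488). None was called in hind limb. Of all genes 2.68% were called lower in skin, 0.356% in tail and 7.02% over the 12 tissues, where 10.9% were called higher. The median of the list in skin was -1.52 beside -0.39 for all genes. Over the 12 tissues DSG2 and jup were called lower and dsg1, another desmosomal cadherin, was called higher (2.76 ± 0.63, edgeR adjusted p = 0.00231).

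Transcription factors of surface epithelium were counted in the same way. Of 16 tested, 12 were called higher in neotenic gill, 14 in limbs, 13 in skin, 3 in cloacal chamber and 4 in bladder, beside the same shares of all genes. Between states KLF5, a factor of proliferating epithelial cells, was called lower in skin (-2.70 ± 0.69, edgeR adjusted p = 0.0282), and over the 12 tissues KLF5 and GRHL3, a factor of epidermal barrier formation, were called lower (-0.56 ± 0.19 and -1.17 ± 0.39, adjusted p = 0.0315 and 0.0345). Of all genes 2.68% were called lower in skin and 7.02% over the 12 tissues, where 10.9% were called higher. The median of the list was -1.55 in skin and -1.60 in hind limb, beside -0.39 and 0.17 for all genes. Of 20 listed genes of cornification only 7 had a model and were tested. None of these was called in skin, hind limb or tail, and over the 12 tissues ELOVL4, an elongase of very long fatty acids, was called higher and abca12, a lipid transporter of the epidermis, lower.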

How the data were processed

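Bulk RNA of axolotl tissues was extracted with TRIzol, tagmented and sequenced as paired ends. The authors deposited raw counts per gene model, made with featureCounts 1.6.0 (exons summed by gene, pairs counted, without strand, multi-mapping and overlapping reads left out) on AmexG_v3.0.0. The submitters' processing notes also name STAR, with no version given for these libraries in the sources used here, and DESeq2. Symbols were taken from the model identifiers.

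Counts were tested with edgeR 4.0.16 (TMM factors, filterByExpr, quasi-likelihood, Benjamini-Hochberg over all genes tested) with 1 coefficient per state and tissue. State contrasts used all 61 libraries (20216 genes) and enrichments the 34 neotenic ones (18982 genes). Calls had an adjusted p under 0.05. The code was tested on simulated counts with a smaller dispersion than that of these data. Only a contrast over several tissues was checked there, so the single-tissue tests were not covered. A fold against libraries at 3 counts or fewer was taken as a bound. These bounds cover counting error only, whereas SDs and SEs include the spread between libraries. SEs of edgeR estimates were derived from the F statistic of the test and were not estimated separately. The members, gene lists and tests were chosen with earlier results of these data known. Named genes were the members, numbered keratins, 5 genes by likeness per member, and listed genes that were called. The labels number the batches in each state, and do not say whether batches of the same number match between the states. The difference between batches correlated across genes between states at r = -0.381 to 0.292 over the 12 tissues. Gonad and gill had no metamorphosed library here. Sequences of the members were not used here.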

Additional observations from a re-analysis of the deposited data

Results flagged for a closer look

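Values of Krt4 lay higher in metamorphosed spleen and lower in metamorphosed skin, hind limb and eye, without a difference between tissues that passed. It was higher in both metamorphosed spleen libraries, at 150.2 and 30.0 CPM beside 11.5 and 16.1 CPM in the neotenic ones (2.70 on the log2 scale, edgeR adjusted p = 0.751), and it was called higher with only the spleen libraries in the fit (2.60, edgeR adjusted p = 0.0401). It was lower in both metamorphosed libraries of skin (-6.08), hind limb (-7.05) and eye (-2.60). The differences between spleen and these tissues were tested after the values were seen. They were 8.79 ± 3.08 log2 units against skin, 9.75 ± 3.14 against hind limb and 5.30 ± 2.84 against eye, and none passed (edgeR adjusted p = 0.15, 0.184 and 0.905). The general epithelial genes summed to 32.6 to 39.1 CPM in metamorphosed and 3.90 to 5.88 in neotenic spleen. The intestinal genes summed to 91.6 to 105 beside 7.43 to 8.34 CPM and the liver genes to 231 to 262 beside 17.8 to 18.6 CPM. The epidermal list was not higher, at 13.8 to 19.2 beside 15.8 to 22.0 CPM. The part of such transcripts in the spleen values of Krt4 was not tested.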

How the results depend on the processing

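Of 632 recomputed values for the comparisons, 575 kept their direction and their side of the threshold. Of those that did not, several followed the tool. With DESeq2, Krt4 passed in skin (-5.69), hind limb (-7.02) and as a difference between the tissue pairs (-5.85), Krt12 passed as a difference (-6.36), Krt124 passed in eye (-8.63), and the cloacal values passed (-2.998, -2.99 and -3.95 for Krt124, Krt12 and Krt4), while the 6 internal tissues gave 1, 3 and 2 calls for Krt4, Krt12 and Krt124. With only the libraries compared, Krt4 passed in skin (-5.85), Krt124 and Krt12 did not pass in hind limb (-10.57 and -10.76) or tail (-9.81 and -9.90), and spleen gave 1 call for Krt4, higher, and 1 for Krt12, lower. With the replicate block, Krt124 did not pass in tail (-9.32), and Krt4 in cloacal chamber turned to -0.17 (-0.59 with a block within each state, which also gave Krt12 1 internal call). The block changed no other call. The cause was not tested.

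Without the libraries labelled neotenic stomach 2 and tail 2, Krt4 passed in hind limb (-7.05) and in cloacal enrichment (-3.45) and Krt12 as a difference (-6.74). The alternatives without the 4 libraries with intestinal and liver genes were chosen after seeing the data. Krt124 was then at -7.75 in skin (-7.75 also with the other 2 left out), -10.97 in hind limb and -9.75 in tail, and Krt12 at -17.25 in skin, against 1 library with 0 counts, and -11.08 in hind limb, none passing. With all 6 left out Krt4 over the 12 tissues was -1.59, not passing, and Krt12 had 2 internal calls.

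Leaving out 1 library at a time gave -10.72 to -7.75 for Krt124 and -17.34 to -10.05 for Krt12 in skin, -11.28 to -9.23 and -11.36 to -9.75 in hind limb, and -11.61 to 0.31 and -10.91 to -0.64 in tail. For Krt4 it gave -8.02 to 3.77 in tail, -5.99 to 1.35 in cloacal chamber and -2.56 to -1.31 over the 12 tissues. In cloacal chamber the sign turned without metamorphosed replicate 2.

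Genes called in either direction ranged from 44 to 2197 in skin (989 as reported), 0 to 1377 in hind limb (121), 0 to 629 in tail (145) and 1792 to 4543 over the 12 tissues (3622). Summing models per symbol gave the same counts, as each symbol had 1 model. Krt124 had no value in 1 tissue with only its own libraries, where it was filtered out. Depth limits values in metamorphosed skin replicate 1, where 3 counts equal 43.3 CPM by library total.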

Other observations

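The replicate with the higher level was the same for the 3 keratins in some neotenic internal tissues and not in others. Heart replicate 2 had 241, 58.8 and 34.1 CPM of Krt4, Krt12 and Krt124, beside 13.0, 6.25 and 3.83 CPM in replicate 1. Kidney replicate 1 had 73.2, 36.9 and 36.9 CPM beside 23.9, 4.92 and 2.85 CPM in replicate 2, and liver replicate 1 had 52.1, 21.6 and 15.2 CPM beside 24.5, 3.83 and 2.98 CPM. In lung Krt4 was at 23.3 and 111 CPM in replicates 1 and 2, while Krt12 was at 7.99 and 4.93 and Krt124 at 5.51 and 3.85 CPM. In brain, cloacal chamber, intestine and spleen, too, Krt4 was higher in replicate 2 and the other two in replicate 1.

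Krt4 varied widely between the replicates of single metamorphosed tissues. It stood at 3.56 and 438 CPM in lung, 0.407 and 68.3 in cloacal chamber, 0.162 and 33.4 in liver and 19.5 and 657 in tail, with replicate 2 the higher in each of these 4 tissues.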
